A study of Mus musculus with 9 samples.

Results

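Collagen genes encode the chains of the collagen trimers, and 44 of them were examined here out of 21938 protein-coding genes on the autosomes, X and Y in the mouse GENCODE annotation (GRCm38). Members were taken by gene symbol and sorted by the kind of trimer they form into 11 fibrillar, 6 basement membrane (type IV), 6 type VI and 21 other collagens. The data were peak lists from ChIC-seq, in which an antibody directs micrococcal nuclease fused to protein A to cut chromatin around a histone mark and the released fragments are sequenced. Primary oviductal muscle cells of WT mice, 8 to 12 weeks old and on day 2 (D2) of pregnancy, were assayed with 50000 cells per library, giving 3 H3K27ac samples, 3 H3K4me1 samples and 3 IgG controls. The cells came from enzyme-digested oviduct that had been passed through a filter and plated for a few hours, and no sort by a cell type marker is described. The labels do not say whether same-group samples came from separate animals, so that the p-values below measure the spread between these samples only, which may be technical.

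Collagens make up much of the extracellular matrix. Fibrillar chains such as those of types I, III and V pack into the fibrils that carry tension in the wall of hollow organs, type IV chains form the sheet-like network of basement membranes that also wraps each smooth muscle cell, and type VI chains form beaded filaments around cells. In the oviduct, smooth muscle and the fibroblasts beside it are known to lay down this matrix. H3K27ac is an acetyl mark found at active promoters and enhancers, and H3K4me1 is a methyl mark found mainly at enhancers and at the edges of promoters.

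There were 8 peak lists, of which 6 were called on single samples and 2 on the pooled samples of each mark, always against IgG. The replicate lists held 93684 to 152889 peaks from 40551842 to 78891920 fragments, against only 3110985 to 3713369 IgG fragments. Peaks were called permissively, since 96.8% to 100% of the peaks in a replicate list had a q-value of 1 (a −log10 q of 0). The same IgG library served as control for the second H3K27ac list and for the first and second H3K4me1 lists, and another served for the third list of either mark. The first H3K27ac list, which held the most peaks, had an IgG library of its own. Lists of different marks overlapped with a Jaccard index of 0.296 to 0.328 where they shared an IgG library and of 0.188 to 0.216 where they did not. The H3K27ac lists, which shared none, overlapped each other by only 0.224 to 0.264. The H3K4me1 lists overlapped by 0.487 with a shared IgG library and by 0.298 and 0.351 without. The part of a shared control in what the marks have in common was not tested. The labelled cell type was checked at promoters: Acta2, Des and Smtn, of 8 smooth muscle markers, had a peak in all 6 replicate lists, while Myh11, the smooth muscle myosin, had H3K27ac in 0 of 3 lists. Of 6 fibroblast markers, Dcn, Lum, Vim and Pdgfrb had a peak in all 6 lists, as had Tek among 6 endothelial markers. None of 8 epithelial and none of 6 blood markers had a peak in all 6 lists, and Epcam, Csf1r, Cd3e, Cd79a and Itgam had none in any, although Ptprc had H3K27ac in 3 lists, with 20.6% of its window in H3K27ac and 14.9% in H3K4me1 on average. Among the epithelial markers, Krt8 had H3K4me1 in 3 lists, with 14.4% of its window in H3K27ac and 22.5% in H3K4me1 on average, and Pax8, Ovgp1 and Cldn3 had each mark in 2 lists. Mean H3K27ac coverage of the fibroblast markers ran from 5.61% (Thy1) and 8.68% (Pdgfrb) to 40.9% (Lum), 43.4% (Vim) and 48.0% (Dcn), and that of the smooth muscle markers from 0.690% (Myh11) to 23.8% (Acta2). The part of other cell types in the collagen values was not tested. A mark carried by some of the cells and a weaker mark in all of them cannot be told apart.

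Sequences are given for promoters at both ends of the range described below. Of the 44 members, 35 had an entry in the RefSeq promoter table (GRCm38.p6), and Col1a1, Col2a1, Col5a2, Col4a3, Col9a3, Col12a1, Col14a1, Col22a1 and Col26a1 did not. The stretches shown run 5′ to 3′ on the strand of the gene, lie within the 250 bases before the RefSeq start and stop at any annotated exon. Capitals mark matches, on either strand, to the CCAAT box, to TATAAA, to the GC box GGGCGG or to the AP-1 motif TGANTCA. The first group is 5 genes with promoter peaks in all 6 replicate lists and a high coverage by at least 1 of the marks: Col3a1 at chr1:45311288-45311537 (plus strand), Col1a2 at chr6:4505370-4505492 (plus strand), Col24a1 at chr3:145292222-145292471 (plus strand), Col6a1 at chr10:76726169-76726294 (minus strand) and Col8a1 at chr16:57754738-57754987 (minus strand).
Col3a1: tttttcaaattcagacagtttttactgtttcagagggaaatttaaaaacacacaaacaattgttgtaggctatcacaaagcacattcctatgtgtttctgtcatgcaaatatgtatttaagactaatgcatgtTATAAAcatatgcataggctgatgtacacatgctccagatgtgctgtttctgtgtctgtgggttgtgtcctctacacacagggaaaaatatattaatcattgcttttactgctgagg
Col1a2: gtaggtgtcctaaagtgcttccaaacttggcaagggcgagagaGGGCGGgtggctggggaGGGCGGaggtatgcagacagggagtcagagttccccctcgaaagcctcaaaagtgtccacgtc
Col24a1: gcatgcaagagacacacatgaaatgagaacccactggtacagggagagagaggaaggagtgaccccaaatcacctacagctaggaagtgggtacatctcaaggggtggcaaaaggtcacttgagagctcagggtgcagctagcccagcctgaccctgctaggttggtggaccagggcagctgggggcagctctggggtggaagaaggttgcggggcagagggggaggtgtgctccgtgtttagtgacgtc
Col6a1: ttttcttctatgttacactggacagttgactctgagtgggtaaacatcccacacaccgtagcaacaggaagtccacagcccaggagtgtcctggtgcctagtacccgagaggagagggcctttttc
Col8a1: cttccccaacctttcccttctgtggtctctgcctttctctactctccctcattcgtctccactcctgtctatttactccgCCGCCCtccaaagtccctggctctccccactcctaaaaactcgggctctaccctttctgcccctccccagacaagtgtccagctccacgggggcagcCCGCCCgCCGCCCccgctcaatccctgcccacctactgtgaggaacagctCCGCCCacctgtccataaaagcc

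The gap between the head-to-head genes Col4a3 and Col4a4 was only 71 bp long, at chr1:82586850-82586920 (minus strand), and is shown on the strand of Col4a4, because this stretch lay inside a peak in all 3 H3K27ac lists.
Col4a3 and Col4a4: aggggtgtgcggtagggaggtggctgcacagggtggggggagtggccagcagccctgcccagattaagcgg

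For contrast, Col10a1 at chr10:34389731-34389980 (plus strand) and Col25a1 at chr3:130180595-130180844 (plus strand) had no promoter peak in any replicate list.
Col10a1: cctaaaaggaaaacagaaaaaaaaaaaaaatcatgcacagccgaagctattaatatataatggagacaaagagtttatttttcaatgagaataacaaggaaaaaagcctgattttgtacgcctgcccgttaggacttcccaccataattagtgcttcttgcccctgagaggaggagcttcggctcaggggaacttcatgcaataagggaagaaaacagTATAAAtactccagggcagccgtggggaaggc
Col25a1: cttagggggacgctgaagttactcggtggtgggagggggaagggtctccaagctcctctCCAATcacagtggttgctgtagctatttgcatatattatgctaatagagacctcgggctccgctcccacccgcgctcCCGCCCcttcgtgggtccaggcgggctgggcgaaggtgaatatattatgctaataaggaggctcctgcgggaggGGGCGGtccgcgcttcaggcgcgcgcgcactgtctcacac

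In base composition these promoters differed widely within the marked group. The Col3a1 stretch held 0 CpG dinucleotides at a GC content of 35.2%, and Col8a1 held 10 at 60.8%, although both genes were marked in all lists. The unmarked Col25a1 promoter was CpG-rich, with 18 CpG at a GC content of 60.4%. Over the 250 bases, GGGCGG occurred in 20 of the 35 collagen promoters (57.1%) and in 32.7% of the 32851 promoters of the table. CCAAT occurred in 11 (31.4% against 33.8%), TATAAA in 5 (14.3% against 12.4%) and TGANTCA only in Col6a1 (2.86% against 6.75%), in a part of its window that is not shown. The collagen shares take 1 promoter per gene, the nearest to its main start, while the shares of the table take every entry. These matches describe letters and not factor binding. The median CpG count was 7 in the 15 promoters with peaks in all 6 lists, 12 in the 16 with peaks in 1 to 5 lists, 3.5 in the 4 with none and 6 in all promoters, so that CpG content did not order the members by marking.

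To learn which collagen promoters carried the marks, a promoter was counted as marked when a peak overlapped the 1 kb either side of any annotated start. Both marks lay at the genes of the type I and type III fibrils, at most type IV genes, and at the genes of the common type VI trimer. In all 6 replicate lists, 18 of 44 members (40.9%) had a promoter peak, beside a background of 27.8% of all protein-coding genes. No peak in any replicate list was found for 5 members (11.4%, beside 31.4%). H3K27ac was missing from all 3 lists at 13 members (29.5%, beside 36.1%) and H3K4me1 at 6 (13.6%, beside 40.4%). By class, peaks in all 6 lists were found at 5 of 11 fibrillar, 5 of 6 basement membrane, 3 of 6 type VI and 5 of 21 other collagens. Paired genes share promoter sequence, so that these members were not independent.

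**Figure D1:**
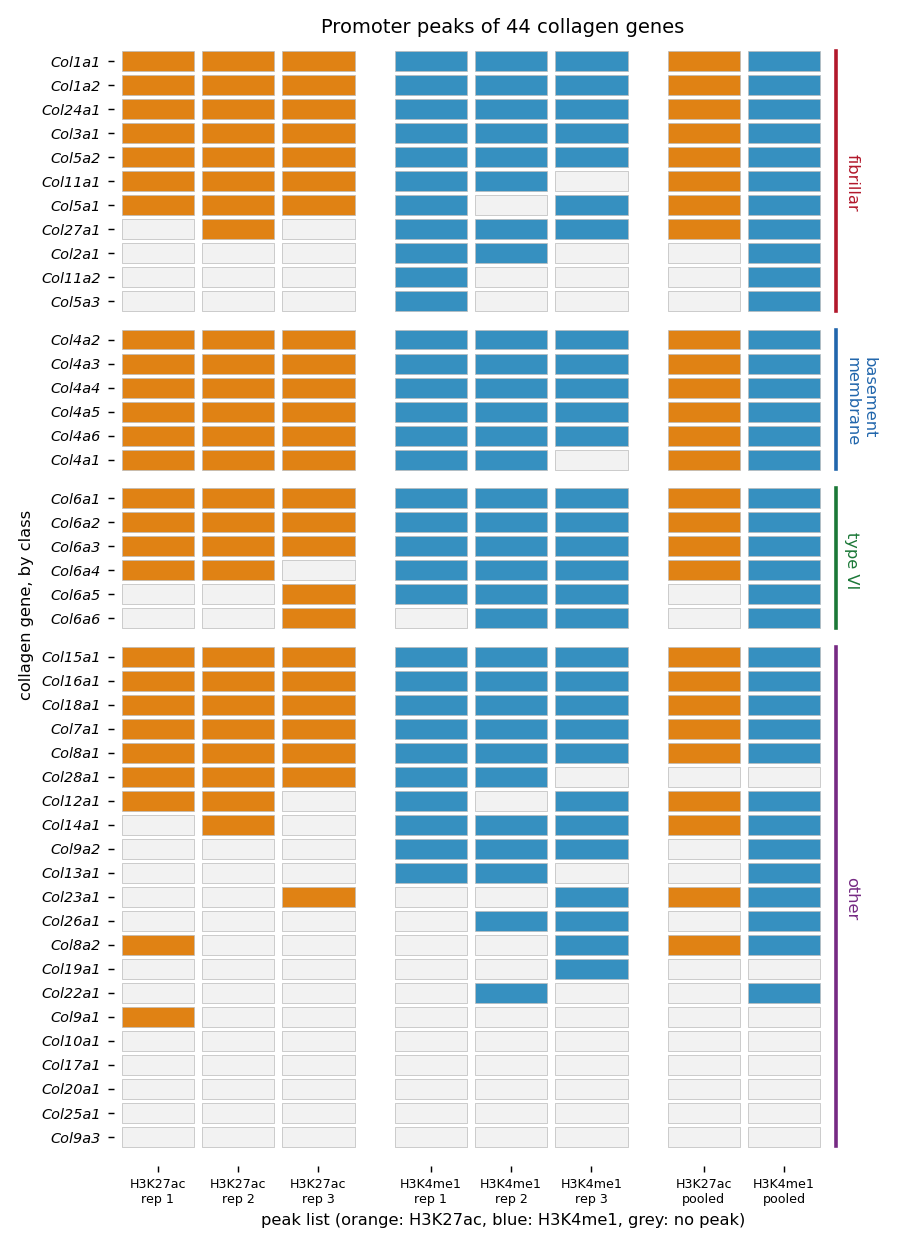
Presence of a promoter peak (coloured) or none (grey) for each of the 44 collagen genes (rows, by class) in the 3 H3K27ac, 3 H3K4me1 and 2 pooled lists (columns). The 18 genes with peaks in all 6 replicate lists stand at the top of each class, and the 5 genes without any stand at the bottom of the other collagens.

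The 2 marks differed in how they stood against the background. H3K27ac was present in 3 of 3 lists at 22 members (50.0%), close to its background of 47.1%. H3K4me1 was present in 3 of 3 lists at 23 members (52.3%), beside a background of 31.7%. Per list, H3K27ac marked 26, 26 and 25 members (all genes 56.6%, 55.3% and 54.1%), and H3K4me1 marked 32, 31 and 30 (all genes 48.8%, 44.9% and 44.5%). Each H3K4me1 list thus held more collagen promoters than any H3K27ac list. The difference of means was -5.33 genes, with p = 0.1 in an exact two-sided permutation test, the smallest p that 3 against 3 lists allow, and an adjusted p of 0.175 over 7 comparisons of the marks. Among the lists that shared an IgG library the difference was -5.50 with replicate 2 of IgG and -5.00 with replicate 3. It turned to 1.67 genes more for H3K27ac with a window of 250 bp and to 0.667 more when only peaks with a −log10 p of at least 1.3 were kept.

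H3K4me1 without H3K27ac was found at 8 promoters (18.2%), beside 4.70% of all genes, and H3K27ac without H3K4me1 only at Col9a1 (background 8.98%), in 1 list. Of these 8, only Col9a2, a chain of the cartilage type IX collagen, carried H3K4me1 in 3 of 3 lists. Col2a1, the main cartilage collagen, Col13a1, a transmembrane collagen of muscle and nerve contacts, and Col26a1 did so in 2 lists. Col5a3, Col11a2, Col19a1 and Col22a1 did so in 1 list each. The count was 6 to 11 when each list was left out in turn, and members with a peak in only 1 list rest on that list. In the pooled lists, H3K27ac marked 27 members (background 57.1%) and H3K4me1 marked 36 (background 58.2%), which took in every fibrillar, type IV and type VI gene. Pooled H3K4me1 without pooled H3K27ac was found at 9 members (20.5%, beside 6.01%), and the converse at 0 (beside 4.89%). Col28a1, a collagen with replicate peaks of both marks, had no promoter peak in either pooled list.

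Among the fibrillar collagens, Col1a1 and Col1a2 (type I), Col3a1 (type III), Col5a2 (type V, which sets fibril diameter) and Col24a1 (a minor fibrillar collagen) had promoter peaks in all 6 lists. Col5a1 and Col11a1, chains that seed thin fibrils, had H3K27ac in 3 lists and H3K4me1 in 2. Col27a1, known from cartilage, had H3K4me1 in 3 lists and H3K27ac in 1.

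The H3K27ac promoter peaks of Col1a1, Col1a2, Col3a1 and Col5a2 were wide and high. Where several peaks lay within 1 kb of a main start, widths and folds are those of the peak with the highest fold. For Col3a1 (chr1:45311538-45349706, plus strand), the H3K27ac peak over the main start was 11426, 14129 and 8684 bp wide in replicates 1 to 3, and its fold enrichment over the local background was 2.31, 2.08 and 2.44. These folds stood at or above the 95.3 percentile and the widths at or above the 99.7 percentile of all peaks of their list. H3K4me1 lay on both sides of this start in each list without covering it, and its strongest peak there, upstream, was 3517, 3248 and 2662 bp wide. In the pooled lists the H3K4me1 peak spanned the start over 21449 bp and the H3K27ac peak over 14558 bp. Col1a2 (chr6:4504814-4541544, plus strand) had H3K27ac peaks of 12010, 6392 and 10417 bp. Its H3K4me1 peaks of 2870 and 3251 bp ended before the start in replicates 1 and 2, while in replicate 3 a peak of 15742 bp began after it. Thus the base at the Col1a2 start was inside H3K27ac in 3 of 3 lists and inside H3K4me1 in 0 of 3. Col1a1 showed the same order, with H3K27ac peaks of 3837, 5428 and 4455 bp over the start and H3K4me1 peaks of 1983, 2130 and 2801 bp that stopped short of it.

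All 6 type IV genes had an H3K27ac promoter peak in 3 of 3 lists, and all except Col4a1 had H3K4me1 in 3 of 3. These genes lie head to head in pairs, so that 1 stretch of chromatin serves both members. The main starts of Col4a1 and Col4a2, which encode the chains of the common basement membrane network, are 21 bp apart and the genes overlap. The H3K27ac peak over their promoter was 4324, 1084 and 2522 bp wide, with a fold of 2.24, 2.33 and 1.98, and the pooled peak spanned both starts over 3340 bp. H3K27ac covered 100% of the bases between the starts in replicates 1 and 3 and 0% in replicate 2, whose peak lay beside them. No H3K4me1 replicate list had a peak within 1 kb of either main start, and the H3K4me1 calls of this pair came from other annotated starts. The pooled H3K4me1 list had a peak of 5941 bp within 1 kb of both main starts that covered neither. Col4a3 and Col4a4, whose chains form specialised basement membranes such as that of the kidney, start 127 bp apart. H3K27ac covered 100% of that stretch in all 3 lists, and H3K4me1 did so in replicates 2 and 3 and covered 0% in replicate 1. Col4a5 and Col4a6, on X, start 1334 bp apart, and 64.1%, 100% and 30.1% of this stretch lay in H3K27ac peaks and 100%, 89.1% and 56.0% in H3K4me1 peaks.

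Of the type VI genes, Col6a1, Col6a2 and Col6a3, which form the common type VI trimer, had promoter peaks of both marks in all lists. Col6a4, Col6a5 and Col6a6, which encode further type VI chains, had H3K27ac in 2, 1 and 1 lists and H3K4me1 in 3, 3 and 2. The H3K27ac peak over the Col6a1 start was 7957, 5777 and 4763 bp wide, and the H3K4me1 peak near it was only 682, 586 and 503 bp. The Col6a2 promoter in H3K27ac replicate 2 lay in a peak of 17814 bp, a width that only 21 peaks of that list reached, and in replicates 1 and 3 no peak at this gene reached that width.

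The remaining classes were mixed. Col15a1 and Col18a1 (multiplexins of basement membrane zones), Col16a1 (a fibril-associated collagen made by smooth muscle and fibroblasts), Col8a1 (a short-chain network collagen of vessel walls) and Col7a1 (the anchoring fibril) had promoter peaks in all 6 lists. The main start of Col15a1 had H3K4me1 in 0 lists, so that its H3K4me1 calls came from other starts. The main start of Col7a1 had H3K27ac in 2 lists. Col12a1 and Col14a1, fibril-associated collagens of dense connective tissue, had them in 4 lists each. No promoter peak was found in any replicate list for Col9a3 (cartilage), Col10a1 (hypertrophic cartilage), Col17a1 (epithelial hemidesmosomes), Col20a1 (a fibril-associated collagen) and Col25a1 (a neuronal transmembrane collagen).

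The count of fully marked members depended on the call threshold and on the choice of starts. When only peaks with a −log10 p of at least 1.3 were kept, 3 members, Col1a2, Col3a1 and Col24a1, were marked in all 6 lists (Col24a1 through starts other than its main one in most lists), beside 5.00% of all genes, and 19 were marked in none, beside 47.2%. With the main start of each gene alone, 14 members (31.8%) were marked in all 6 lists, beside 18.8% of all genes, 19 (43.2%) by H3K27ac in 3 of 3 lists, beside 43.4%, and 19 (43.2%) by H3K4me1, beside 22.0%. Leaving out each list in turn gave 18 to 21 members.

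To measure the marks beyond the promoter, the share of each gene window covered by peaks was taken, the window being the gene body with 10 kb either side. Mean H3K27ac coverage was highest over Col3a1, Col5a2, Col6a1, Col1a2 and Col1a1, and mean H3K4me1 coverage over Col3a1, Col5a2, Col1a2, Col8a1 and Col24a1. Col3a1, Col5a2, Col6a1, Col1a2 and Col1a1, 5 members (11.4%), were in the top 10% of all genes in each of the 6 lists, beside a background of 3.04%. With only peaks of −log10 p of at least 1.3 the count was 3 (Col1a2, Col3a1 and Col6a1), beside 1.54% of all genes. For H3K4me1 alone, 8 members (18.2%) met this in 3 of 3 lists, beside 6.34%, and for H3K27ac alone 5 (11.4%), beside 5.69%. Across the 44 genes, the mean coverage by H3K27ac and that by H3K4me1 rose together (Spearman's rho 0.853, Pearson's r 0.945), which describes genes that share libraries, IgG controls and window lengths. Within the collagen windows, H3K4me1 peaks held 63.1% to 68.8% of the H3K27ac-covered bases where the lists shared an IgG library and 43.5% to 54.3% where they did not, and the part of the shared control was not tested.

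**Figure D2:**
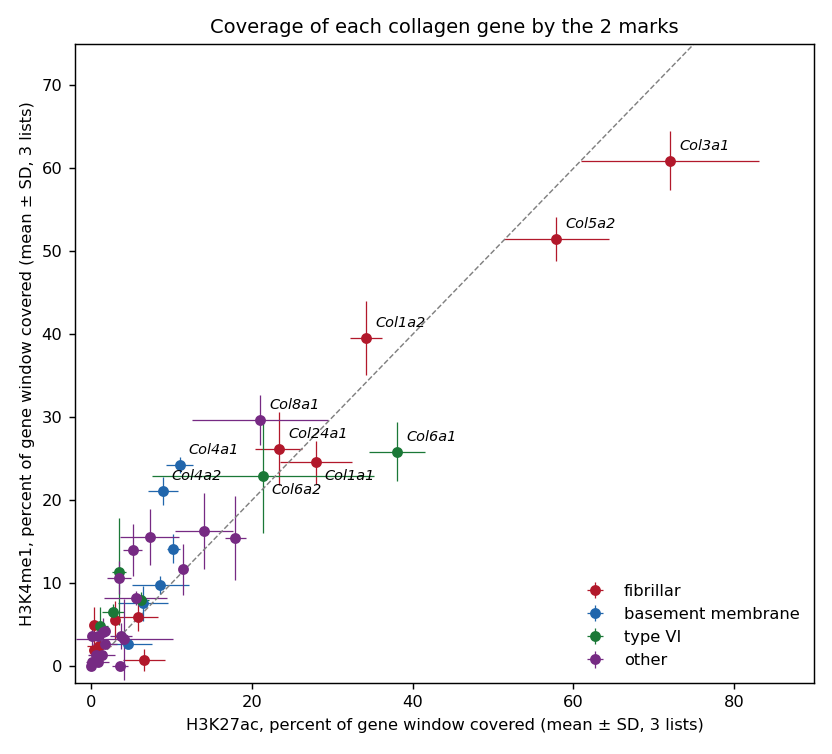
Percent of each collagen gene window covered by H3K27ac (x axis) and H3K4me1 (y axis), as mean ± SD of 3 lists, coloured by class; the dashed line marks equal values. Col3a1 and Col5a2 lie far from the other members, at 72.0% and 57.8% for H3K27ac, and Col6a1 lies below the line, while Col4a1 and Col4a2 lie above it.

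Col3a1 was the most covered member. H3K27ac covered 83.7%, 70.6% and 61.8% of its window in replicates 1 to 3, and H3K4me1 covered 58.4%, 65.0% and 59.3%. Its neighbour Col5a2 (chr1:45374321-45503282, minus strand), which points towards it, was covered to 64.9%, 56.5% and 52.1% by H3K27ac and 53.8%, 52.2% and 48.6% by H3K4me1. For both genes the 2 marks overlapped in their ranges, and every value stood above the 99.4 percentile of all genes. The 24614 bp between the 2 genes was covered to 43.5%, 41.1% and 23.6% by H3K27ac and to 39.2%, 41.8% and 23.0% by H3K4me1, less than either gene window.

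**Figure D3:**
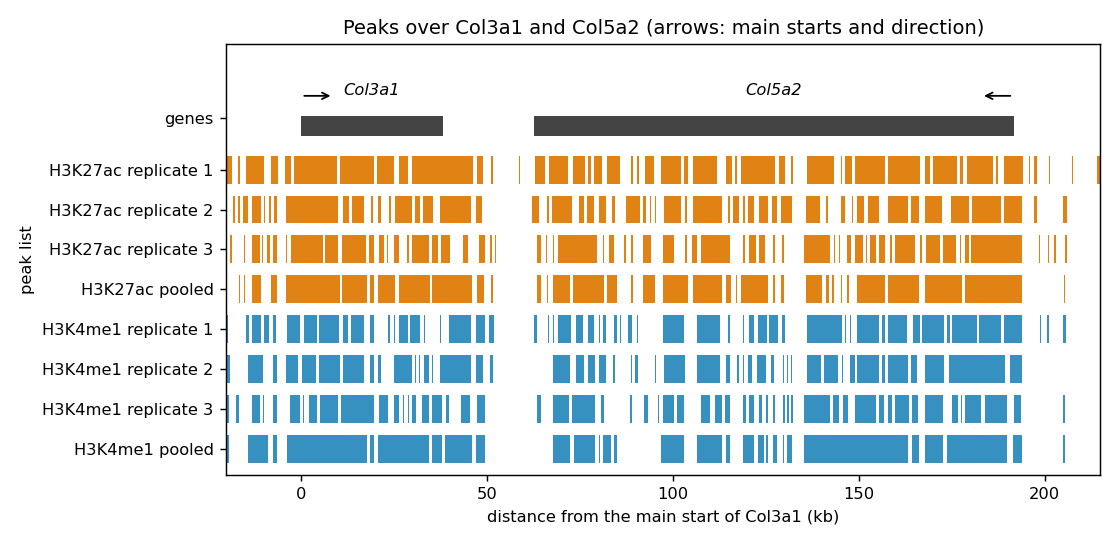
Peaks of the 8 lists (rows; orange H3K27ac, blue H3K4me1) over Col3a1 and Col5a2, by distance in kb from the main start of Col3a1; dark bars are the gene bodies and arrows the main starts with their direction. Peaks of both marks recur over both gene bodies in all lists, and the stretch between the genes is covered only in part.

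The type I genes and Col24a1 came next among the fibrillar genes. The Col1a2 window was covered to 36.4%, 33.5% and 32.7% by H3K27ac and to 44.2%, 35.4% and 39.0% by H3K4me1. For Col1a1 (chr11:94936224-94953042, plus strand), the values were 28.8%, 32.0% and 23.1% for H3K27ac and 26.0%, 21.6% and 26.1% for H3K4me1. At both genes the lists of the marks overlapped. Col24a1 (chr3:145292472-145552011, plus strand) was covered to 23.5%, 26.2% and 20.4% by H3K27ac and to 22.7%, 31.1% and 24.8% by H3K4me1, with its widest peaks deep in the gene body rather than at the start. By contrast, Col2a1, Col5a3 and Col27a1 had a mean H3K27ac coverage of 0.352%, 0.972% and 0.299%, so that the fibrillar class held both the highest and some of the lowest members.

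Among type VI genes, Col6a1 (chr10:76708792-76726168, minus strand) was covered to 36.2%, 42.1% and 35.8% by H3K27ac and to 22.0%, 29.1% and 26.5% by H3K4me1, so that every H3K27ac list was above every H3K4me1 list. Col6a2, which lies downstream of it on the same strand, was covered to 12.2%, 37.2% and 14.6% by H3K27ac and to 24.4%, 29.1% and 15.4% by H3K4me1. The value in H3K27ac replicate 2 stood far above the other replicates and came from the wide peak named above. Col6a3 was covered to 5.43%, 5.86% and 7.29% by H3K27ac and 8.96%, 8.06% and 7.1% by H3K4me1.

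Of the type IV genes, Col4a1, Col4a2 and Col4a4 were covered more by H3K4me1 in every list. Over Col4a1 (chr8:11198423-11312826, minus strand), H3K27ac covered 12.9%, 9.69% and 10.4% and H3K4me1 covered 25.0%, 23.2% and 24.5%. Over Col4a2 (chr8:11312805-11449287, plus strand), the values were 9.53%, 10.4% and 6.82% against 22.7%, 21.3% and 19.3%. Every H3K4me1 list was above every H3K27ac list at both genes, by a difference of means of 13.2 and 12.2 percentage points. Col4a4 showed the same order, at 9.54%, 10.0% and 11.1% against 12.2%, 15.5% and 14.7%. Its partner Col4a3 did not, at 11.8%, 9.28% and 4.79% against 8.94%, 10.9% and 9.51%. Of the X-linked pair, Col4a5 was covered to 7.85%, 4.00% and 2.02% by H3K27ac and 2.71%, 2.74% and 2.48% by H3K4me1, and Col4a6 to 9.91%, 5.74% and 3.82% and to 5.27%, 9.44% and 8.01%. For this pair the marks overlapped, and the mean at Col4a5 was higher for H3K27ac, at 4.63% against 2.64%.

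Of the other collagens, Col8a1 was covered to 30.4%, 14.1% and 18.5% by H3K27ac and to 32.1%, 26.3% and 30.6% by H3K4me1, behind only Col3a1, Col5a2 and Col1a2 in mean H3K4me1 coverage. Col18a1 was covered to 5.40%, 6.24% and 3.91% by H3K27ac and to 14.2%, 17.0% and 10.8% by H3K4me1, and Col15a1 to 4.99%, 3.51% and 1.92% and to 12.2%, 11.4% and 8.46%. At both multiplexins every H3K4me1 list was above every H3K27ac list. Col16a1 was covered to 11.2%, 11.3% and 11.8% by H3K27ac and to 14.2%, 8.18% and 12.6% by H3K4me1, and Col7a1 to 18.1%, 11.4% and 12.6% and to 15.9%, 12.0% and 21.1%, without a separation of the marks. The window of Col7a1 also holds Pfkfb4, Ucn2 and Uqcrc1, whose own peaks count towards it.

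Of the members without a promoter peak, Col20a1 had 0% in all 6 lists. Col9a3 had 4.55%, 2.61% and 3.53% of H3K27ac and 0% of H3K4me1, in a window that also holds Ogfr and Tcfl5. Col17a1 was covered to 0%, 2.55% and 2.60% by H3K27ac and to 2.24%, 2.57% and 3.33% by H3K4me1. Col25a1 was covered to 2.45%, 1.29% and 1.31% by H3K27ac and to 4.27%, 4.21% and 4.39% by H3K4me1, the latter above the median of all genes in each list. At Col10a1, which lies in the Nt5dc1 locus, replicate 1 gave 11.1% for H3K27ac and 8.88% for H3K4me1, and the other lists gave 0% to 1.33%.

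The adjacent pair Col9a1 and Col19a1, a cartilage and a fibril-associated collagen whose genes converge across a gap of 9205 bp, was also little covered. Col9a1 had 2.41%, 0% and 0% in H3K27ac and 0.429%, 0.923% and 0.285% in H3K4me1, and Col19a1 had 3.25%, 0.404% and 0.527% and 1.83%, 1.04% and 1.15%. The gap between them held 0% in all 6 lists.

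Over all members, H3K4me1 coverage was higher in every list than H3K27ac coverage at 15 of 44 genes (34.1%), beside a background of 11.0%, and lower at 3 (6.82%), Col6a1, Col9a3 and Col11a2, beside 15.8%. The Col11a2 window also holds Rxrb and Slc39a7, and its promoter had H3K27ac in 0 of 3 lists. Besides Col4a1, Col4a2, Col4a4, Col15a1 and Col18a1, the genes with more H3K4me1 were Col5a1, Col27a1, Col6a4, Col6a5, Col6a6, Col14a1, Col22a1, Col23a1, Col25a1 and Col26a1. These backgrounds were not matched for length, since the median window was 134 kb for collagens and 37.4 kb for all genes. The 15 genes were 105 kb (Col6a5) to 468 kb (Col25a1) long, and the 3 genes 17.4 kb (Col6a1) to 27.2 kb (Col11a2). The part of window length in these shares was not tested. For the merged collagen windows, H3K27ac covered 9.63%, 7.81% and 6.85% and H3K4me1 covered 10.6%, 10.8% and 10.5%, against 6.46% ± 1.20 and 7.83% ± 0.235 (SD, n = 3) for the merged windows of all genes. The means over the collagens were 8.10% ± 1.41 and 10.6% ± 0.111 (SD, n = 3), and the lists of the marks did not overlap (exact permutation p = 0.1, adjusted p = 0.175). The difference was -2.54 points, -0.713 with only peaks of −log10 p of at least 1.3, and -2.88 and -3.68 among the lists that shared IgG replicate 2 and 3. Relative to all genes, collagen windows were covered 1.24 to 1.28 times as much by H3K27ac and 1.32 to 1.39 times as much by H3K4me1 in each list.

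The classes were then compared within each list. By the mean over genes, fibrillar windows were covered most by either mark and the 21 other collagens least. The mean fibrillar coverage was 23.4%, 21.7% and 18.3% for H3K27ac and 21.8%, 20.2% and 19.2% for H3K4me1. The other collagens had 6.76%, 4.04% and 4.36%, and 7.85%, 6.56% and 7.11%. The fibrillar class exceeded them by 16.1 ± 1.93 percentage points for H3K27ac and 13.2 ± 0.992 for H3K4me1 (SD, n = 3 lists), in 3 of 3 lists each.

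Basement membrane genes exceeded the other collagens by 3.26 ± 1.03 percentage points for H3K27ac and 6.08 ± 1.17 for H3K4me1 (SD, n = 3). Type VI genes exceeded them by 7.09 ± 4.11 and 6.10 ± 2.12 (SD, n = 3). All 6 of these class differences were positive in 3 of 3 lists, and each gave p = 0.25 in an exact two-sided permutation test within lists, which is the smallest p that 3 lists allow. The sizes depended on the settings: with only peaks of −log10 p of at least 1.3 they were 6.72 and 6.39 for fibrillar, 0.598 and 3.42 for basement membrane and 8.57 and 3.65 for type VI (H3K27ac, then H3K4me1), and with 50 kb either side 9.75 and 7.56, 1.19 and 4.71, and 1.08 and 1.67. At 50 kb the exact permutation p for type VI and H3K27ac was 0.75. The basement membrane excess for H3K4me1 rested largely on the paired Col4a1 and Col4a2, with mean coverages of 24.2% and 21.1%. Col4a3, Col4a4, Col4a5 and Col4a6 had 9.80%, 14.2%, 2.64% and 7.57%, beside 7.17% for the other collagens. For type VI and H3K27ac, replicate 2 gave a difference of 11.5 and the other lists gave 3.43 and 6.31. The type VI mean rested on Col6a1 and Col6a2, since Col6a4, Col6a5 and Col6a6 had mean H3K27ac coverages of 1.12%, 2.71% and 3.46%, below the 5.05% of the other collagens, and over merged windows type VI was not above them in H3K27ac replicate 1 (5.92% against 6.04%). Against all protein-coding genes, with a mean coverage of 7.97% ± 0.938 by H3K27ac and of 7.19% ± 0.320 by H3K4me1 (SD, n = 3), the fibrillar class stood 2.59 to 2.73 and 2.79 to 2.90 times higher in each list. The other collagens stood at 0.509 to 0.758 times the H3K27ac mean of all genes and at 0.916 to 1.04 times the H3K4me1 mean.

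**Figure D4:**
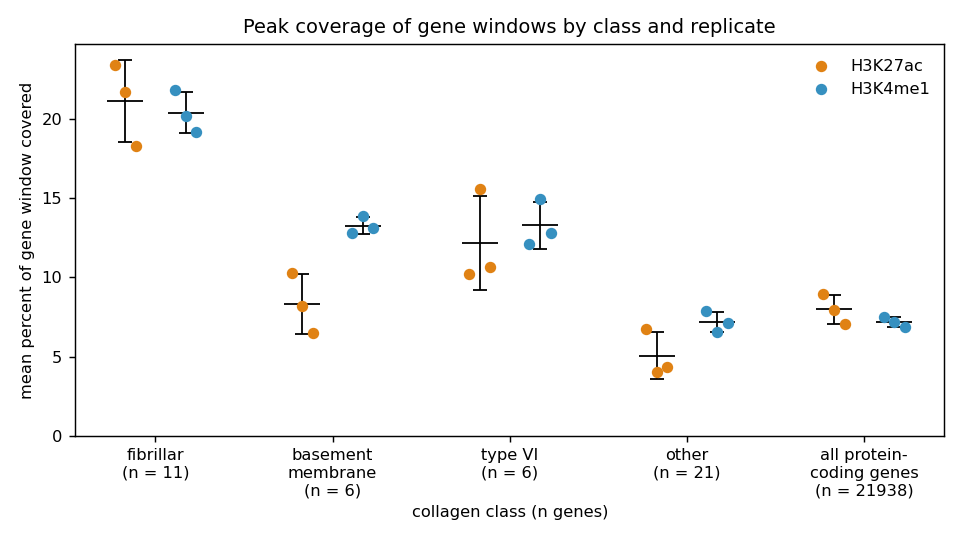
Mean percent of the gene window covered in each class (x axis, with the number of genes) in each H3K27ac (orange) and H3K4me1 (blue) list; bars show the mean ± SD of 3 lists. Fibrillar collagens stand near 20% for both marks, and the other collagens stand lowest of the 4 classes. H3K4me1 is above H3K27ac in every list for the basement membrane class, mostly through Col4a1 and Col4a2. All protein-coding genes are at the right.

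The fibrillar mean rested on a few genes. The median over its 11 members was 7.20% ± 2.83 in the H3K27ac lists and 6.20% ± 1.62 in the H3K4me1 lists (SD, n = 3), against 4.32% ± 0.732 and 3.41% ± 0.483 over all genes. By the median, the basement membrane class stood above the fibrillar class in all 6 lists, at 8.34% ± 2.2 and 12.0% ± 1.33 (SD, n = 3). Above the median of all genes in 3 of 3 H3K27ac lists were 7 of 11 fibrillar, 5 of 6 basement membrane, 3 of 6 type VI and 6 of 21 other collagens, 21 of 44 in all (47.7%), beside a background of 40.7%. For H3K4me1 the counts were 7, 5, 5 and 9, 26 in all (59.1%), beside 39.6%.

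Between the marks, only the basement membrane class separated. H3K27ac covered 10.3%, 8.18% and 6.49% of its windows on average, and H3K4me1 covered 12.8%, 13.9% and 13.1%, a difference of -4.94 percentage points (exact permutation p = 0.1, adjusted p = 0.175), and of -5.15 and -6.60 among the lists that shared IgG replicate 2 and 3. The basement membrane difference came mostly from the shared locus of Col4a1 and Col4a2, at -13.2 and -12.2 points. At Col4a3, Col4a4, Col4a5 and Col4a6 it was -1.18, -3.94, 1.98 and -1.08 points, and the class without the first pair was not tested. In the fibrillar class the difference was 0.727 points (exact permutation p = 0.8, adjusted p = 0.8), in type VI -1.13 points (p = 0.6, adjusted p = 0.7, exact permutation) and in the other collagens -2.12 points (p = 0.2, adjusted p = 0.28, exact permutation). With 3 lists per mark none of these could pass 0.05. The direction was not stable for the fibrillar class, at -0.402 without H3K27ac replicate 1, or for type VI, at 4.60 with only peaks of −log10 p of at least 1.3. Among the lists that shared IgG replicate 2 and 3 these differences were 0.706 and -0.913 for fibrillar, 2.05 and -2.10 for type VI and -3.17 and -2.75 for other collagens.

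Around the main start of the collagens, H3K27ac was most frequent between the start and 1 kb downstream of it, and H3K4me1 was less frequent at the start than 1 kb to either side. The base at the start lay in an H3K27ac peak at 36.4%, 38.6% and 38.6% of the 44 members and in an H3K4me1 peak at 20.5%, 15.9% and 22.7%, a difference of 18.2 percentage points (exact permutation p = 0.1, adjusted p = 0.175), and of 20.5 and 15.9 among the lists that shared IgG replicate 2 and 3. Among all genes the shares were 38.1% ± 1.56 and 13.2% ± 1.99 (SD, n = 3). In 3 of 3 lists, the start was covered by H3K27ac at 10 members (22.7%), beside 25.4%, and by H3K4me1 at 3 (6.82%), beside 3.51%. The 3 were Col5a2, Col24a1 and Col8a1.

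At 2 kb downstream, 22.0% ± 6.56 of members lay in H3K27ac and 24.2% ± 2.62 in H3K4me1 (SD, n = 3), and at 5 kb downstream 13.6% ± 2.27 and 22.7% ± 2.27. The corresponding shares of all genes at 5 kb were 7.79% ± 0.898 and 11.1% ± 0.144. At 1 kb upstream, 28.8% ± 6.56 of collagens lay in H3K4me1, beside 13.6% ± 0.263 of all genes. H3K4me1 was thus more frequent at collagens than at all genes 1, 2 and 5 kb to either side of the start, in each list, and also at the start itself, by 15.9% to 22.7% against 11.4% to 15.3%. H3K27ac was at the level of all genes at the start but above it in each list at 2 kb upstream (15.9% to 22.7% against 8.95% to 10.8%) and at 5 kb downstream (11.4% to 15.9% against 6.82% to 8.6%). The same held at 1 kb upstream (22.7% to 29.5% against 19.5% to 22.6%) and 1 kb downstream (34.1% to 45.5% against 28.9% to 32.4%). At 2 kb downstream H3K27ac was also above all genes in each list, but in replicate 2 only by 18.2% against 17.9%.

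**Figure D5:**
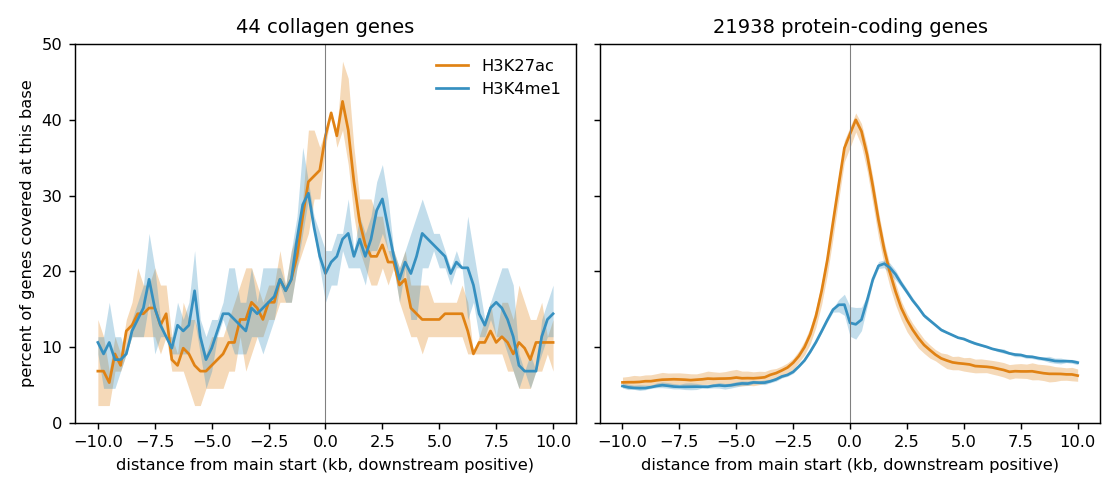
Percent of genes in which a base is inside a peak, by distance from the main start in kb (downstream positive), for 44 collagen genes (left) and all protein-coding genes (right); lines are means and bands the range of 3 lists. H3K27ac reaches a similar height at the start in both panels, and H3K4me1 stays higher in the collagens on either side of the start, at 22.7% against 11.1% at 5 kb downstream.

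Most of the covered sequence lay in introns, which made up 78.1% of the collagen windows. They held 69.4% to 73.8% of the H3K27ac-covered and 76.8% to 80.4% of the H3K4me1-covered bases. Promoter windows made up 4.79% of the sequence and held 8.44% to 10.3% and 5.36% to 6.60%. By density, 12.9% to 17.0% of promoter sequence was covered by H3K27ac, against 6.27% to 9.10% of intron sequence, and 11.8% to 14.7% against 10.4% to 10.9% by H3K4me1.

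To find candidate distal elements, stretches of at least 200 bp outside all promoter windows were taken where each mark was present in at least 2 of its 3 lists. Such a region was found in the windows of 28 collagens (63.6%), beside a background of 39.2%. Collagen windows were longer, with a median of 134 kb against 37.4 kb, and the number of regions per 100 kb of window was 3.09 against 2.08 for all genes. The density was 6.08 in fibrillar, 4.11 in basement membrane, 2.35 in type VI and 1.68 in other collagens. The order differed by gene, since a region was found for 54.5% of fibrillar, 100% of basement membrane, 83.3% of type VI and 52.4% of other collagens, with a median of 3 regions per fibrillar and 8.5 per basement membrane gene. The windows of paired type IV genes overlap, and a region in the overlap counts for both members. For example, chr1:82596370-82597066 counts for Col4a3 and for Col4a4. Col5a2 had 28 such regions, Col24a1 25, Col8a1 15, and Col3a1 and Col12a1 14 each.

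The longest regions lay in or near the most covered genes. In Col5a2 a stretch of 8093 bp (chr1:45491784-45499876) was centred 7.45 kb downstream of its start, and in Col1a2 a stretch of 7698 bp (chr6:4506703-4514400) was centred 5.06 kb into the gene. In Col24a1 a region of 7359 bp (chr3:145520541-145527899) lay 232 kb into the gene. Downstream of the end of Col3a1, 6734 bp (chr1:45350573-45357306) carried both marks. Upstream of Col6a1, 5171 bp (chr10:76729842-76735012) was centred 6.26 kb before the start, and upstream of Col1a1, 2665 bp (chr11:94926660-94929324) was centred 8.23 kb before the start. No such region was found for Col5a1, whose H3K27ac and H3K4me1 shared only 0.178 kb.

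The enzymes and receptors that make, export, cleave and bind collagen were examined as a list of 42 genes. Promoter peaks in all 6 lists were found for 19 of them (45.2%), beside 27.8% of all genes, and in none for 2 (4.76%), beside 31.4%. H3K27ac was present in 3 of 3 lists at 30 (71.4%), beside 47.1%, and H3K4me1 at 25 (59.5%), beside 31.7%. All 5 secretion genes, Mia3, Mia2, Sec23a, Sec24d and Klhl12, which load procollagen into large transport carriers, were marked in all 6 lists. Some of the genes marked in all 6 lists were so only through other annotated starts. At its main start, Mia2 had H3K27ac in 1 list and H3K4me1 in 0. Counted the same way, Bmp1 had 3 and 0, P3h2 1 and 3, Itga2 1 and 1, Ddr1 2 and 2, and Ddr2 3 and 2.

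Of 16 hydroxylase and chaperone genes, 14 had H3K27ac in 3 of 3 lists and 6 had both marks in all lists: P4ha2, Plod1, Plod2, P3h2, Ppib and Colgalt2. Serpinh1, the collagen chaperone HSP47, had H3K27ac in 3 lists and H3K4me1 in 1, with 33.3% and 25.2% of its window covered on average. Of 8 receptor genes, Itga1, Itga2, Itgb1, Ddr1, Ddr2 and Mrc2 were marked in all 6 lists, and Itgb1, the shared beta chain of the collagen integrins, was covered to 60.7% by H3K27ac and 51.4% by H3K4me1 on average.

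The crosslinking enzymes divided. Loxl1 was marked in all 6 lists, and Loxl2 and Loxl4 were marked in none. Between them, Loxl3 had H3K27ac in 3 and H3K4me1 in 2 promoter calls, and Lox had H3K27ac in 3 and H3K4me1 in 0. Of 8 propeptide cleavage genes only Bmp1, the procollagen C-proteinase, was marked in all 6, while 5 had H3K4me1 in 3 of 3 lists and 2 had H3K27ac.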

How the data were processed

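ChIC-seq peak lists were taken for 3 H3K27ac and 3 H3K4me1 samples and for the pooled samples of each mark; the 3 IgG samples entered only as controls. Per the labels the submitters' processing notes name cutadapt, Bowtie2, MACS2 and GRCm38.p5. Per the file headers the authors called broad peaks with MACS 2.2.7.1 on paired fragments, with p cutoffs of 0.05 (strong) and 0.1 (weak), scaling the larger library down. The deposited columns hold the pileup, a coverage signal, the −log10 p-value, and the fold enrichment, a ratio to the local background. Depth is given as fragments per call, and no coverage outside peaks was used here. Genes and starts came from GENCODE; the main start is that of the principal transcript. Intervals were joined with Python 3.11.15, numpy 2.4.6 and pandas 2.3.3, tested on simulated data. Lists were compared by exact permutation, with Benjamini-Hochberg adjustment over 7 comparisons. Values per list are given for members marked in all 6 lists or none, the 5 most covered by each mark, and adjacent pairs. Members, gene lists and tests were chosen with earlier results of these data known. The related publication's ChIC-seq methods are for uterine stromal cells and were not used here.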

Additional observations from a re-analysis of the deposited data

Results flagged for a closer look

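Around the main start of the 44 collagens the marks moved in opposite directions in every list. The share of members with a covered base fell by 15.9 percentage points from the start to 2 kb downstream for H3K27ac and rose by 4.55 points for H3K4me1 (means of 3 lists), with every H3K27ac list falling and every H3K4me1 list rising. All protein-coding genes showed the same directions, from 38.1% to 17.3% for H3K27ac and from 13.2% to 19.6% for H3K4me1. The difference between the marks in this step was not tested.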

How the results depend on the processing

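Of the values recomputed under alternatives, 9 changed sign and 4 counts moved by more than 1.5 times; the others (145 planned and 32 added) kept their sign or, for counts, stayed within 1.5 times, but several differences changed in size by more, with class differences down to 0.598 (basement membrane, H3K27ac, −log10 p limit) and 1.08 (type VI, H3K27ac, 50 kb either side) and the merged windows to -0.713 (−log10 p limit). Differences are H3K27ac minus H3K4me1. The difference in marked promoters reversed to 1.67 with 250 bp either side of a start and to 0.667 with only peaks of −log10 p of at least 1.3. The difference in covered starts reversed to -2.27 points when read 2 kb downstream. The fibrillar difference reversed to -0.913 with only lists sharing IgG replicate 3, to -0.274 with only peaks of at least 5 times the mean coverage and to -0.531 without promoter windows, and the type VI difference reversed to 2.05 with only lists sharing IgG replicate 2 and to 4.60 with the −log10 p limit; the cause was not tested. Under alternatives chosen after the data were seen, the −log10 p limit gave 3 members marked in all lists, 19 in none and 3 in the top 10% in all lists, and single main starts gave 8 in none.

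Leaving out each list in turn gave -5.83 to -4.83 promoters, -3.31 to -1.92 points for merged windows, 16.3 to 19.7 points for starts, and by class -0.402 (without H3K27ac replicate 1) to 2.14 (without H3K27ac replicate 3) for fibrillar, -5.92 to -4.03 for basement membrane, -2.84 to -0.149 for type VI and -2.97 to -1.61 for other collagens. Same-numbered samples of the marks deviated together with correlations of -0.0762, 0.377 and 0.507, so that the numbers were not taken as pairs. With the number as a replicate block the differences stayed -5.33, -2.54, 18.2, 0.727, -4.94, -1.13 and -2.12, with exact sign-flip permutation p = 0.25 for 5 of them and p = 0.5 for fibrillar and type VI, 0.25 being the smallest p that 3 pairs allow. The low IgG depth and the permissive threshold limit what a peak in 1 list shows.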
